A study of Mus musculus with 8 samples.

Results

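Transcripts of 33 genes of sterol and fatty acid synthesis were followed in nuclear RNA of mouse embryonic stem cells labeled as knockouts of Mettl14 or Mettl3. The genes are 7 enzymes of the mevalonate pathway, 12 genes of sterol synthesis and transport downstream of it, 5 regulators of the SREBP transcription factors, and 9 genes of fatty acid synthesis, elongation and desaturation. They were chosen by symbol with earlier results of these data known, and each was found among the 54446 genes of every count table. METTL3 is the catalytic subunit of the enzyme that writes N6-methyladenosine in RNA, and METTL14 is its RNA-binding partner. The series title sets METTL14 apart from that mark, so each knockout was compared with the control of its own line, and the responses were compared with each other.

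All 8 libraries came from C57BL/6 embryonic stem cells grown in serum with LIF, the GSK3 inhibitor CHIR99021 and the MEK inhibitor PD0325901. The groups were Mettl14 control, Mettl14 CKO (conditional knockout), Mettl3 control and Mettl3 CKO, with 2 libraries each. The sources used here do not give the Cre driver, the deleted exons, the time after deletion or whether a line is 1 clone. They also do not say whether replicate libraries were grown separately; p-values then reflect only the spread between these libraries, which may be technical. Total counts were 17235889 to 20086128 per library. Each targeted transcript was lower in its own knockout, at 51.3% of control for Mettl14 and 51.9% for Mettl3. The counts alone do not show how complete the deletion was. Mettl14 gave 58.3 and 55.0 CPM in Mettl14 control and 27.8 and 30.2 CPM in Mettl14 CKO (log2 change -0.96 ± 0.068), and Mettl3 gave 37.9 and 36.1 CPM in Mettl3 control and 19.8 and 18.6 CPM in Mettl3 CKO (-0.95 ± 0.075). Mettl14 was at 30.1 and 26.7 CPM in Mettl3 control and 29.6 and 28.7 CPM in Mettl3 CKO, values that overlap those of Mettl14 CKO, so a low Mettl14 level alone does not tell Mettl14 CKO from the Mettl3 line. The control groups differed in Mettl14 by 0.99 ± 0.068 (adjusted p = 1.55e-28) on the log2 scale. Levels are given in CPM, counts scaled to the TMM-corrected library size, and values after ± of a log2 change are standard errors.

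Cells make cholesterol from acetyl-CoA through mevalonate, squalene and lanosterol, and fatty acids from the same precursor through malonyl-CoA. Both routes are driven by the SREBP factors, encoded by Srebf1 and Srebf2, which are made as precursors in the membrane of the endoplasmic reticulum. When membrane sterol is low, SCAP carries the precursor to the Golgi apparatus, where proteases release the active factor; when sterol is plentiful, INSIG proteins hold SCAP back. SREBP2 acts mainly on sterol genes and SREBP1 mainly on fatty acid genes, and at promoters they act together with the factors NF-Y and Sp1. Insig1 and the Srebf genes are themselves SREBP targets.

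The RefSeq promoter table (GRCm38.p6) held 26 of the 33 genes, each as 300 bases from 250 before to 50 after the start site. No entry was found for Fdps, Fdft1, Sqle, Stard4, Scd1, Scd2 and Fads1. The NF-Y box CCAAT, searched on both strands, was present in 20 of the 26 windows (76.9%), against 38.2% of 20584 promoters of all genes in the table and 38.6% of 13404 promoters of genes tested here. The Sp1 box GGGCGG was present in 19 (73.1%), against 42.7% and 58.3%. Both boxes stood together in 15 windows (57.7%), against 15.9% and 22%. By branch these were 4 of 6 mevalonate, 8 of 9 sterol, 2 of 5 regulator and 1 of 6 fatty acid windows (16.7%). In the fatty acid branch GGGCGG was present in 2 of 6 windows (33.3%), below both background shares. Since GC-rich promoters hold GGGCGG often, base composition is shared by these counts.

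The sterol regulatory element was searched as TCACNCCAC. This was present in 1 of 26 windows (3.85%), against 1.24% of all promoters and 1.2% of promoters of genes tested. It was also searched as ATCAC followed directly by CCCAC with at most 1 mismatch. That form was present in 3 of 26 (11.5%), against 1.93% and 1.81%. The Hmgcs1 match is shared by both searches. The E-box CACGTG was present in 5 windows (19.2%), against 7.67% of all promoters and 9.44% of promoters of genes tested. The Acaca window surrounds a start site 65766 bases from the start of its GENCODE gene model. A match describes letters and is not a measured binding site. The stretches below lie before the start site, outside annotated exons, and are printed 5′ to 3′ with NF-Y boxes (CCAAT, or ATTGG on the other strand) and the element-like matches in capitals. Hmgcs1 (chr13:119690211-119690350 on the plus strand) and Srebf2 (chr15:82147041-82147180 on the plus strand) are shown for the element, Mvk (chr5:114444129-114444268 on the plus strand) and Fasn (chr11:120824548-120824687 on the minus strand) for their NF-Y boxes, and Insig2 (chr1:121332590-121332729 on the minus strand) and Elovl5 (chr9:77917224-77917363 on the plus strand) as the genes that were called in neither knockout.
Hmgcs1: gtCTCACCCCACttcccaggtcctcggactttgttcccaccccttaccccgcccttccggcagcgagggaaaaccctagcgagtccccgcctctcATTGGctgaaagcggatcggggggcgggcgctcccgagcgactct
Srebf2: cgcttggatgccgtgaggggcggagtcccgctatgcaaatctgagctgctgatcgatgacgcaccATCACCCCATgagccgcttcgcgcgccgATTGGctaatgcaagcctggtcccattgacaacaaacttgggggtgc
Mvk: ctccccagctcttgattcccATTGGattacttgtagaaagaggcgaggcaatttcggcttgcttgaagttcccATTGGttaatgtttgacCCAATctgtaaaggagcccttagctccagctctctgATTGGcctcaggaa
Fasn: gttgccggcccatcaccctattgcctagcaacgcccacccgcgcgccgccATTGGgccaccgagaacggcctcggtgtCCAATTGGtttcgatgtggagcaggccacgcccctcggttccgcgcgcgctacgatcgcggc
Insig2: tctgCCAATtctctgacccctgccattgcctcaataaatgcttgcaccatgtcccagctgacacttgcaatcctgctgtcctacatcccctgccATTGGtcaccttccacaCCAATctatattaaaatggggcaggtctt
Elovl5: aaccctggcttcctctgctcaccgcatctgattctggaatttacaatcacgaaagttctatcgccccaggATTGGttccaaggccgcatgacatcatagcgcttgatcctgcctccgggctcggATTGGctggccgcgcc
The stretches of Insig2 and Elovl5 held 3 and 2 NF-Y boxes, so this letter pattern was shared by genes that were called and genes that were not. The overlapping boxes in the Fasn stretch, on opposite strands, account for 2 of its 3.

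Transcripts of these genes were higher in both knockouts. In Mettl14 CKO 31 of the 33 were called higher and 0 lower, where 18% of the 21782 genes tested were called higher, 22.4% lower and 40.4% in either direction. Their median log2 change was 0.84, against 0.034 over all genes tested. In Mettl3 CKO again 31 were called higher and 0 lower, where 15.1% of all genes were called higher, 5.78% lower and 20.9% in either direction, with a median of 0.73 against 0.026. Insig2 and Elovl5 were not called in either knockout. Calls are at a p under 0.05 after Benjamini-Hochberg adjustment over all genes in edgeR's quasi-likelihood test, and all 33 passed the filter on low counts. The number lower was also 0 in each knockout at an unadjusted p under 0.05, and with DESeq2 and limma-voom.

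Among the 8946 genes at least as abundant as the least abundant of the 33, 25.8% were called higher in Mettl14 CKO and 31.6% in Mettl3 CKO. Being called higher in both knockouts was a property of 6% of all genes tested. A log2 change of at least 1 was reached by 8 of the 33 in Mettl14 CKO and by 5 in Mettl3 CKO, where 10.2% and 0.661% of all genes tested did so whatever their p. All 13 of these values were also called, and 4.75% and 0.262% of all genes both reached that change and were called. The 10099 genes whose average log2 CPM was 3 or more were also ranked by log2 change in Mettl3 CKO. There, Nsdhl stood at rank 4, Fads2 at 5, Cyp51 at 7, Msmo1 at 11 and Dhcr7 at 12, and 12 of the 25 highest ranks were held by the 33 genes. In the same ranking for Mettl14 CKO they held 0 of the 25 highest and 4 of the 100 highest, with Cyp51 at rank 69.

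The libraries did not overlap, with both CKO libraries above both controls, for 31 of the 33 genes in the Mettl14 line and 32 in the Mettl3 line, where 34.8% and 32.5% of all genes tested did so. Under upper-quartile scaling the calls over all genes in Mettl3 CKO turned from 3292 higher and 1260 lower to 1293 higher and 2771 lower, and 27 of the 33 genes were then called higher. Without the low-count filter they were 5814 higher and 559 lower, with 32 of the 33 higher, and with DESeq2 2433 higher and 464 lower. In the Mettl14 line DESeq2 gave 2481 higher and 4723 lower against 3921 and 4880. Between 29 and 31 of the 33 were higher in Mettl14 CKO in every alternative run.

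**Figure D1:**
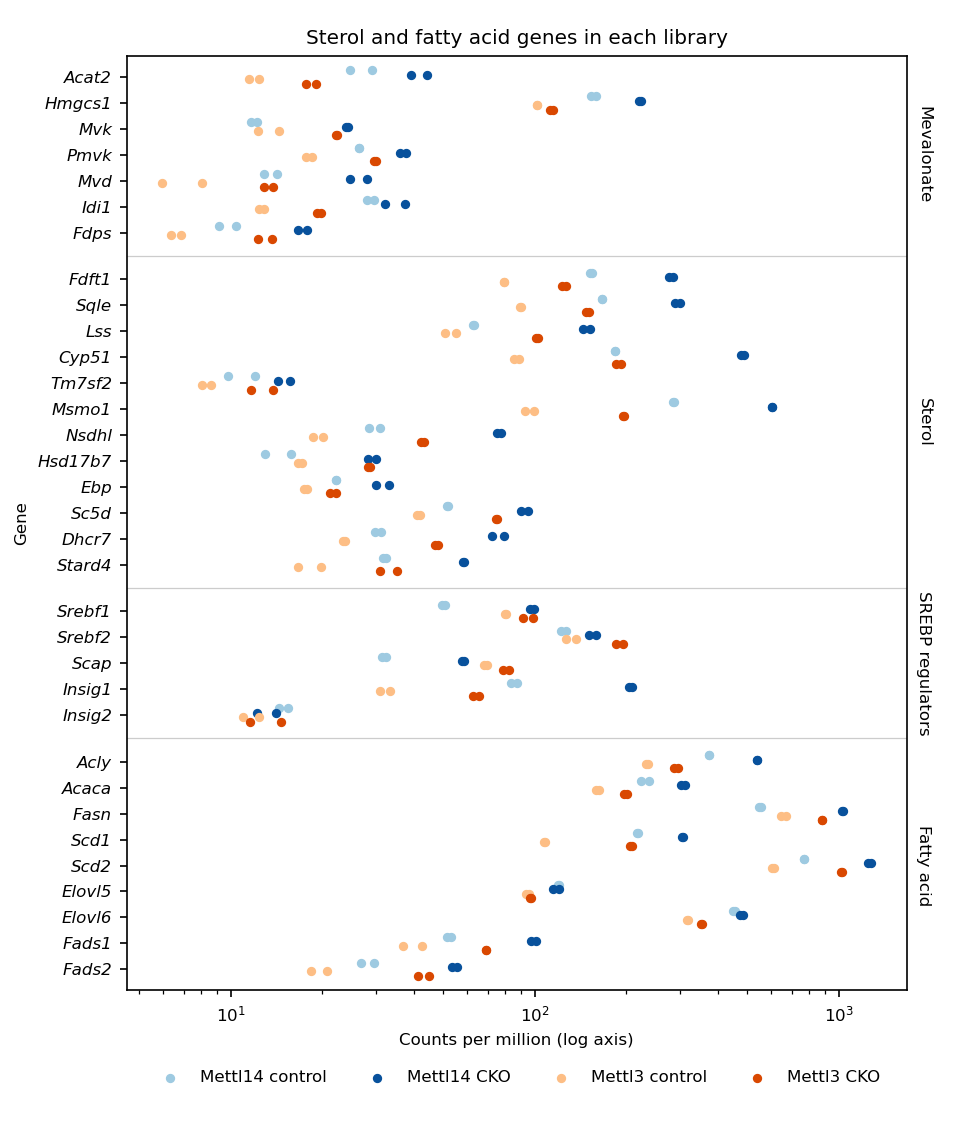
Level of each of the 33 genes in each library (x axis, CPM, log scale; 1 point per library, 2 libraries per group), ordered by branch. Dark points (CKO) lie to the right of light points (control) of the same color for nearly all genes; Insig2 and Elovl5 are the exceptions in the Mettl14 line.

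The 7 mevalonate genes rose in both knockouts, with a median of 0.64 in Mettl14 CKO (range 0.26 to 1.02) and 0.72 in Mettl3 CKO (0.16 to 0.97). Their summed level went from 273 ± 4.25 CPM in Mettl14 control to 403 ± 0.0997 in Mettl14 CKO, and from 172 ± 0.176 in Mettl3 control to 230.0 ± 1.85 in Mettl3 CKO (SD, n = 2). Mvk, mevalonate kinase, gave 12.2 and 11.7 CPM in Mettl14 control, 24.3 and 24.0 CPM in Mettl14 CKO, 14.4 and 12.3 CPM in Mettl3 control and 22.3 and 22.3 CPM in Mettl3 CKO. It had the largest change of the branch in Mettl14 CKO, 1.02 ± 0.10 (adjusted p = 4.82e-17), and its CKO libraries stood clear of the controls in both lines (0.74 ± 0.095 in Mettl3 CKO).

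Fdps, farnesyl diphosphate synthase, gave 10.4 and 9.17 CPM in Mettl14 control, 17.8 and 16.6 CPM in Mettl14 CKO, 6.88 and 6.38 CPM in Mettl3 control and 13.7 and 12.3 CPM in Mettl3 CKO. Its change was the largest of the branch in Mettl3 CKO, 0.97 ± 0.13 (adjusted p = 1.9e-10), and 0.81 ± 0.12 (adjusted p = 1.39e-09) in Mettl14 CKO. Hmgcs1, the cytosolic HMG-CoA synthase that feeds the pathway, gave 153 and 159 CPM in Mettl14 control, 219.7 and 223 CPM in Mettl14 CKO, 102 and 102 CPM in Mettl3 control and 115 and 112 CPM in Mettl3 CKO. The libraries of each pair of groups did not overlap, but the change in Mettl3 CKO was the smallest of the branch: 0.16 ± 0.039, against 0.51 ± 0.035 in Mettl14 CKO. This Mettl3 call did not hold under upper-quartile scaling (0.045, adjusted p = 0.465).

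Idi1, isopentenyl diphosphate isomerase, gave 29.7 and 28.0 CPM in Mettl14 control, 37.3 and 32.1 CPM in Mettl14 CKO, 12.8 and 12.3 CPM in Mettl3 control and 19.2 and 19.8 CPM in Mettl3 CKO. It was the least changed of the branch in Mettl14 CKO, 0.26 ± 0.079 (adjusted p = 0.00381), a call lost with DESeq2 (adjusted p = 0.119), without Mettl14 CKO replicate 1 (0.159 log2, adjusted p = 0.237) and without Mettl14 control replicate 2 (0.227, adjusted p = 0.0683), each fitted with edgeR unless named. In Mettl3 CKO it rose by 0.63 ± 0.096. Acat2, the cytosolic acetoacetyl-CoA thiolase, rose by 0.64 and 0.62 in Mettl14 and Mettl3 CKO. The kinase Pmvk rose by 0.49 and 0.72, and the decarboxylase Mvd by 0.97 and 0.93. Acat2 has a near-identical neighbor, Acat3, and how shared reads were handled is unknown here.

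The sterol branch, from squalene synthase to the last reductase, held the largest changes. All 12 genes rose in both knockouts, with a median of 0.95 in Mettl14 CKO (range 0.46 to 1.39) and 0.86 in Mettl3 CKO (0.30 to 1.14). Mettl14 control and CKO had a summed level of 1044 ± 2.84 and 2186 ± 0.851 CPM, and Mettl3 control and CKO 551 ± 8.08 and 1022 ± 14.3 CPM (SD, n = 2). This sum was 2.09 times and 1.86 times that of the control, against 1.47 and 1.34 for the mevalonate branch and 1.50 and 1.41 for the fatty acid branch.

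Cyp51, the lanosterol demethylase, gave 184 and 183 CPM in Mettl14 control, 476 and 486 CPM in Mettl14 CKO, 88.5 and 85.5 CPM in Mettl3 control and 185 and 193 CPM in Mettl3 CKO. Its change was the largest of all 33 genes in Mettl14 CKO, 1.39 ± 0.031 (adjusted p = 6.59e-78), or 2.62-fold, and 1.12 ± 0.036 in Mettl3 CKO. Its Mettl3 CKO libraries only reached the level of the Mettl14 control libraries. Akap9 lies on the opposite strand and shares 3.76% of the Cyp51 exon bases, and whether the counting used strand is unknown here.

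Nsdhl, a sterol dehydrogenase that acts in removing the methyl groups of lanosterol derivatives, gave 28.6 and 31.1 CPM in Mettl14 control, 74.9 and 77.3 CPM in Mettl14 CKO, 18.6 and 20.1 CPM in Mettl3 control and 42.1 and 43.3 CPM in Mettl3 CKO. It had the largest change of the 33 in Mettl3 CKO, 1.14 ± 0.071 (adjusted p = 9.96e-30), and rose by 1.35 ± 0.064 in Mettl14 CKO, so all 4 CKO libraries were above all 4 control libraries. Of the genes next to it in the route, the methylsterol oxidase Msmo1 rose by 1.07 and 1.03, and the ketoreductase Hsd17b7 by 1.03 and 0.76 in Mettl14 and Mettl3 CKO. Dhcr7, which makes the final reduction of 7-dehydrocholesterol, rose by 1.32 and 1.01, and Lss, lanosterol synthase, by 1.23 and 0.94.

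The smallest changes of the branch belonged to Tm7sf2 and Ebp. Tm7sf2, a sterol reductase, gave 9.79 and 12.1 CPM in Mettl14 control, 14.3 and 15.7 CPM in Mettl14 CKO, 8.02 and 8.60 CPM in Mettl3 control and 11.6 and 13.8 CPM in Mettl3 CKO. Its rise of 0.46 ± 0.12 (adjusted p = 0.000714) in Mettl14 CKO lost its call without Mettl14 control replicate 1 (0.303, adjusted p = 0.105), while that in Mettl3 CKO was 0.61 ± 0.12. It shares 12.1% of its exon bases with Vps51 on the same strand.

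Ebp, a sterol isomerase, gave 22.2 and 22.2 CPM in Mettl14 control, 30.1 and 33.2 CPM in Mettl14 CKO, 17.8 and 17.4 CPM in Mettl3 control and 22.2 and 21.3 CPM in Mettl3 CKO, with changes of 0.51 ± 0.083 and 0.30 ± 0.088 in Mettl14 and Mettl3 CKO. The second was not called under upper-quartile scaling (adjusted p = 0.122). The squalene-forming Fdft1 rose by 0.87 and 0.66, the epoxidase Sqle by 0.82 and 0.73, the desaturase Sc5d by 0.84 and 0.85, and the sterol carrier gene Stard4 by 0.86 and 0.86. Fdft1 shares 18.3% of its exon bases with Ctsb on the opposite strand.

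The regulators did not move as a block. Insig1, which retains SCAP and is itself induced by SREBP, gave 83.6 and 87.7 CPM in Mettl14 control, 205 and 209 CPM in Mettl14 CKO, 31.0 and 33.5 CPM in Mettl3 control and 62.7 and 65.6 CPM in Mettl3 CKO. It rose by 1.27 ± 0.041 (adjusted p = 2.85e-59) in Mettl14 CKO and 0.99 ± 0.054 (adjusted p = 8.79e-35) in Mettl3 CKO, among the larger changes of the 33. Its homolog Insig2 gave 14.4 and 15.4 CPM in Mettl14 control, 12.2 and 14.1 CPM in Mettl14 CKO, 11.0 and 12.3 CPM in Mettl3 control and 11.6 and 14.6 CPM in Mettl3 CKO. Its libraries overlapped in the Mettl3 line, and its changes, -0.18 ± 0.11 (adjusted p = 0.207) and 0.17 ± 0.11 (adjusted p = 0.317), were not called; without Mettl3 CKO replicate 1 the latter was 0.366 (adjusted p = 0.0365).

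Srebf1, the gene of SREBP1, gave 50.7 and 49.7 CPM in Mettl14 control, 96.6 and 99.7 CPM in Mettl14 CKO, 80.7 and 80.1 CPM in Mettl3 control and 91.3 and 98.5 CPM in Mettl3 CKO. Both CKO groups ended at a like level, but the control levels differed, and the change was 0.97 ± 0.050 in Mettl14 CKO and 0.24 ± 0.045 in Mettl3 CKO. Srebf2, the gene of SREBP2, gave 122 and 127 CPM in Mettl14 control, 151 and 159.6 CPM in Mettl14 CKO, 126 and 136 CPM in Mettl3 control and 185 and 195 CPM in Mettl3 CKO. Here the Mettl3 CKO libraries were the highest, with changes of 0.32 ± 0.039 in Mettl14 CKO and 0.53 ± 0.037 in Mettl3 CKO. Srebf1 shares 1.94% of its exon bases with Rai1 on the opposite strand.

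Scap, the escort of the SREBP precursors, gave 31.6 and 32.4 CPM in Mettl14 control, 57.5 and 58.7 CPM in Mettl14 CKO, 68.2 and 69.8 CPM in Mettl3 control and 78.6 and 82.5 CPM in Mettl3 CKO. The Mettl14 control libraries were the lowest and the Mettl3 CKO libraries the highest, with changes of 0.86 ± 0.061 and 0.22 ± 0.049 in Mettl14 and Mettl3 CKO. Under upper-quartile scaling the second was not called (log2 change 0.110, adjusted p = 0.11).

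**Figure D2:**
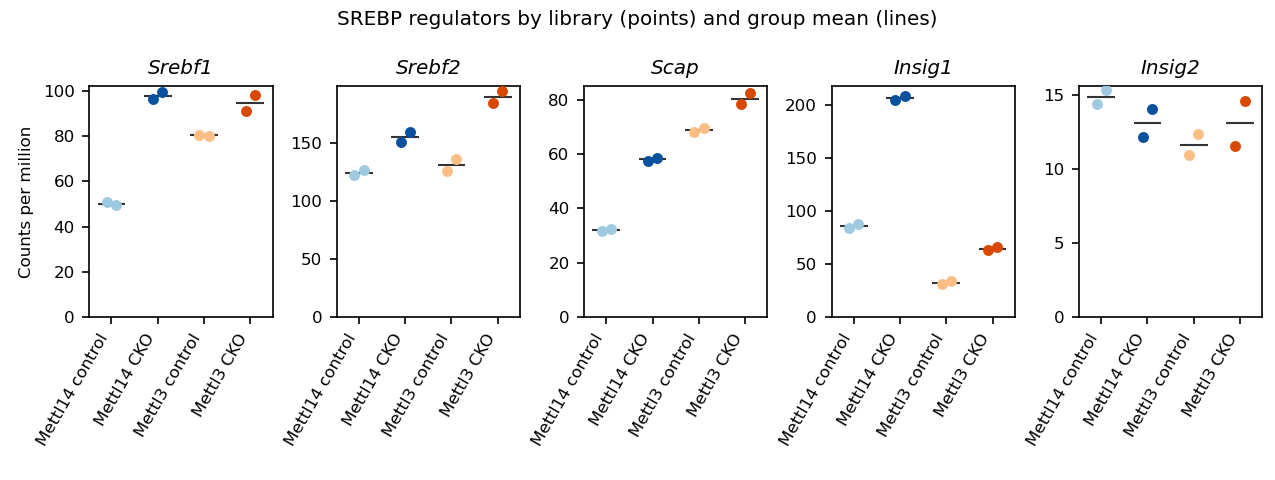
Level of the 5 SREBP regulator genes (y axis, CPM; each panel has its own scale from 0) by group (x axis); points are libraries and lines are group means. Insig1 is higher in both knockouts and also higher in Mettl14 control than in Mettl3 control. Srebf1 and Scap are lower in Mettl14 control than in Mettl3 control, and the Insig2 groups lie between 11.0 and 15.4 CPM.

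Of the 9 fatty acid genes, 8 rose in each knockout and 0 fell, with a median of 0.53 in Mettl14 CKO (range -0.031 to 0.96) and 0.42 in Mettl3 CKO (0.032 to 1.13). Their summed level was 2796 ± 18.8 and 4201 ± 39.5 CPM in Mettl14 control and CKO, and 2239 ± 20.7 and 3164 ± 22.5 in Mettl3 control and CKO (SD, n = 2). Fads2, the first desaturase of polyunsaturated fatty acids, gave 26.8 and 29.5 CPM in Mettl14 control, 53.5 and 55.6 CPM in Mettl14 CKO, 20.8 and 18.4 CPM in Mettl3 control and 41.2 and 44.8 CPM in Mettl3 CKO, with changes of 0.96 ± 0.070 (adjusted p = 9.59e-26) and 1.13 ± 0.073 (adjusted p = 1.54e-28). Fads1 rose by 0.93 and 0.80 in Mettl14 and Mettl3 CKO, and the stearoyl-CoA desaturase Scd2 by 0.72 and 0.75.

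The 2 elongases had the smallest changes of the branch. Elovl5, which lengthens polyunsaturated chains, gave 120.3 and 119.7 CPM in Mettl14 control, 120.1 and 115 CPM in Mettl14 CKO, 95.9 and 93.5 CPM in Mettl3 control and 96.6 and 97.1 CPM in Mettl3 CKO. Its Mettl14 libraries overlapped, and the changes of -0.031 ± 0.041 (adjusted p = 0.589) and 0.032 ± 0.042 (adjusted p = 0.649) were not called. Without the low-count filter, edgeR called the change in Mettl3 CKO higher (0.14, adjusted p = 0.0121). Elovl6, which lengthens saturated chains, changed by 0.081 ± 0.027 (adjusted p = 0.00919) and 0.16 ± 0.027 (adjusted p = 1.59e-06). In Mettl14 CKO that call was lost with DESeq2 (adjusted p = 0.563), with RLE scaling (adjusted p = 0.135) and without Mettl14 control replicate 1 or either Mettl14 CKO library, and in Mettl3 CKO under upper-quartile scaling (adjusted p = 0.254).

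Fasn, fatty acid synthase, gave 555 and 549 CPM in Mettl14 control, 1036 and 1029 CPM in Mettl14 CKO, 645 and 671 CPM in Mettl3 control and 881 and 882 CPM in Mettl3 CKO. Its change was 0.90 ± 0.024 (adjusted p = 2.77e-68) in Mettl14 CKO and 0.42 ± 0.024 (adjusted p = 3.47e-33) in Mettl3 CKO, with no overlap of libraries in either line. The citrate lyase Acly, which supplies cytosolic acetyl-CoA, rose by 0.53 and 0.32 in Mettl14 and Mettl3 CKO. The acetyl-CoA carboxylase Acaca, which makes malonyl-CoA, rose by 0.42 and 0.31. Scd1 rose by 0.49 and 0.94; it has near-identical relatives in Scd2, Scd3 and Scd4, between which reads could be split.

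Levels were compared between genes as CPM per kilobase of merged exon length. In Mettl14 control the group means ran from 2.33 for Fdps and 2.48 for Tm7sf2 to 141 for Scd2. The fatty acid genes Acly (70.7), Elovl6 (70.3) and Fasn (50.4) followed Scd2, and Acly and Elovl6 were too close to be ordered. The most abundant sterol genes were Msmo1 (46.5) and Cyp51 (41.6). In Mettl14 CKO Scd2 was again highest at 231, and Cyp51 reached 109 and Msmo1 97.9, near Acly (102) and Fasn (94.3) and above Elovl6 (74.4). In Mettl3 CKO Scd2 was 187, Fasn 80.5, Cyp51 42.7 and Msmo1 31.9.

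The difference between the knockouts, the Mettl14 change minus the Mettl3 change, was tested in the same fit. It was called for 13 of the 33 genes: 10 rose more in Mettl14 CKO and 3 rose more in Mettl3 CKO, where 12.7% and 20.5% of all genes tested were called in these directions and 33.2% in either. Of 33 genes, 13 is close to that background share, and the median difference was 0.09. Fasn had the smallest p, with a difference of 0.48 ± 0.034 (adjusted p = 4.29e-26), followed by Srebf1 with 0.73 ± 0.068 (adjusted p = 4.07e-18). Scap differed by 0.64 ± 0.079 (adjusted p = 6.06e-12) and Hmgcs1 by 0.35 ± 0.053, both with the larger change in Mettl14 CKO.

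Scd1 went the other way, with -0.45 ± 0.047 (adjusted p = 1.63e-15): it stood at 218 ± 1.78 and 307 ± 1.58 CPM in Mettl14 control and CKO, and at 108 ± 0.1 and 207 ± 2.80 in Mettl3 control and CKO (SD, n = 2). Idi1 (-0.37 ± 0.13) and Srebf2 (-0.21 ± 0.054) also rose more in Mettl3 CKO. In the sterol branch 4 of 12 genes differed, Fdft1, Lss, Cyp51 and Dhcr7, each by 0.21 to 0.30 and each higher in Mettl14 CKO. The remaining 20 genes were not called, with differences from -0.35 (Insig2) to 0.28 (Mvk).

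How many genes differed moved with the scaling of the libraries. Calls over all genes were 2777 higher and 4461 lower, and 4287 higher and 2788 lower under upper-quartile scaling, where 19 of the 33 genes were higher and 1 lower. They were 1917 higher and 5446 lower without the low-count filter, where 6 were higher and 9 lower, and 1242 higher and 4304 lower with DESeq2. The calls of 7 genes held in all 14 alternatives run: Hmgcs1, Lss, Cyp51, Srebf1, Scap and Fasn, with the larger change in Mettl14 CKO, and Scd1, with the larger change in Mettl3 CKO.

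**Figure D3:**
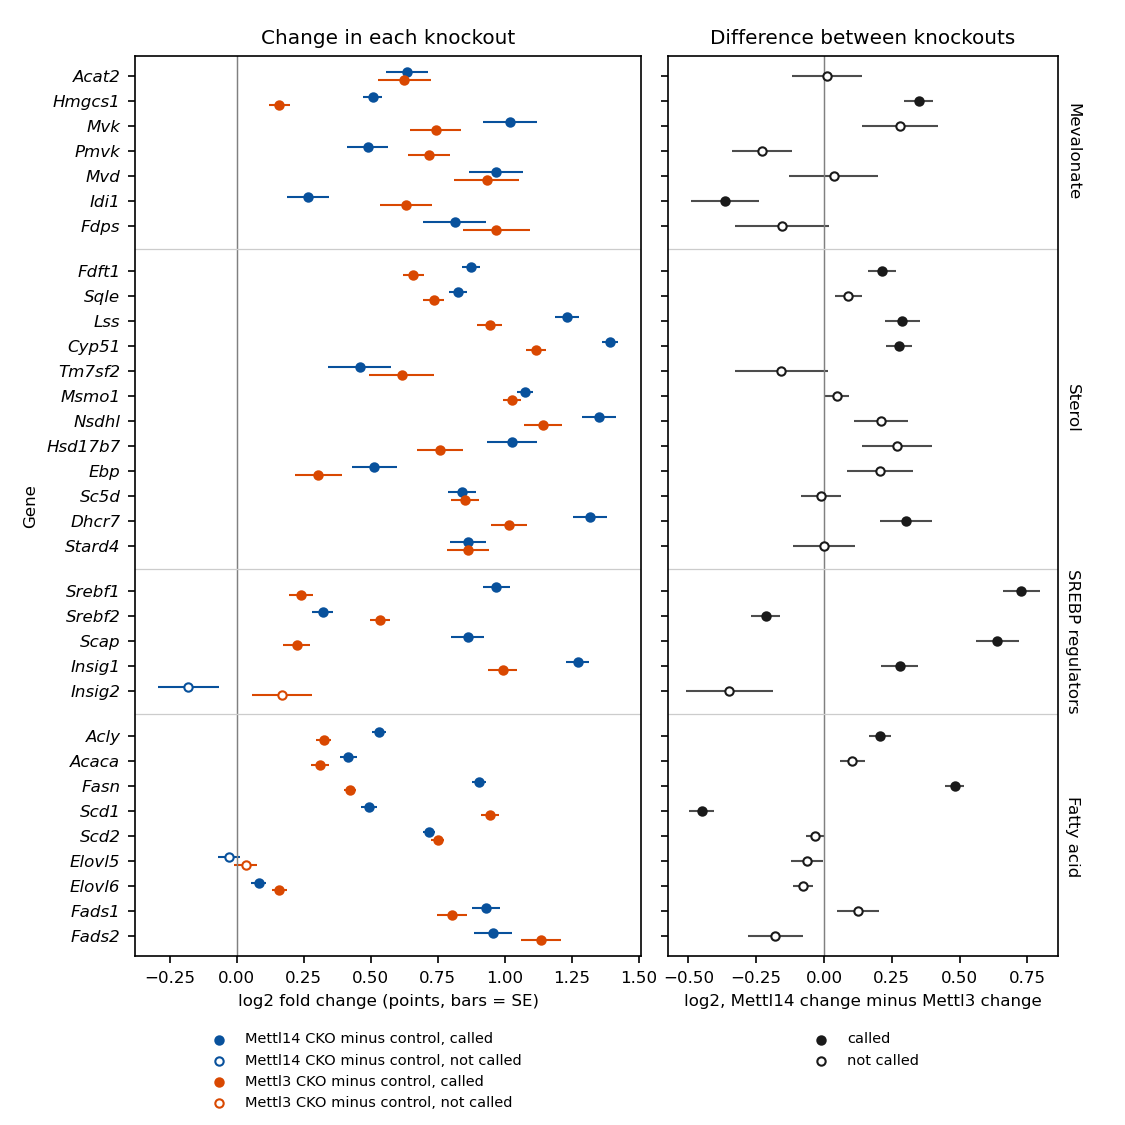
Left, log2 change of each gene in Mettl14 CKO and Mettl3 CKO against its own control (x axis; points with standard error bars, filled where called). Right, the Mettl14 change minus the Mettl3 change (x axis, log2), where Srebf1, Scap and Fasn lie farthest to the right and Scd1 farthest to the left.

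The control groups differed from each other without a knockout. In Mettl14 control 27 of the 33 genes were higher than in Mettl3 control, 4 were lower and 2, Mvk and Srebf2, were not called, where 33.6% of all genes tested were higher, 34.1% lower and 67.8% either. Among the 8946 genes of at least their abundance, 60.9% were higher. The median difference was 0.52. Msmo1 (1.57 ± 0.034), Insig1 (1.41 ± 0.053), Idi1 (1.19 ± 0.092) and Acat2 (1.17 ± 0.095) had the largest excess in Mettl14 control. Under upper-quartile scaling 21 were higher and 6 lower: Lss, Tm7sf2, Ebp, Sc5d, Dhcr7 and Insig2 were no longer called, and Mvk and Srebf2 were called lower. Tm7sf2 also lost its call without Mettl14 control replicate 2 (0.285, adjusted p = 0.131). The 4 lower genes were Scap (-1.11 ± 0.059), Srebf1 (-0.68 ± 0.051), Fasn (-0.25 ± 0.025) and Hsd17b7 (-0.24 ± 0.10), the last lost with DESeq2 (adjusted p = 0.328), without the low-count filter (adjusted p = 0.49) and when any of 7 single libraries was left out.

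Under upper-quartile scaling calls over all genes went from 7329 higher and 7430 lower to 5642 and 9450, and the median of the 33 genes from 0.52 to 0.305. Each control group enters this comparison, its own knockout comparison and the difference between knockouts. A control level thus enters each of these values. Srebf1, Scap and Fasn were lower in Mettl14 control and rose more in Mettl14 CKO. The other genes that rose more there, Hmgcs1, Fdft1, Lss, Cyp51, Dhcr7, Insig1 and Acly, were higher in Mettl14 control.

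Markers of embryonic stem cells and of other cell types differed between the groups. The 11 embryonic stem cell markers, all present in every library, summed to 2868 ± 12.7 CPM in Mettl14 control, 2092 ± 15.0 in Mettl14 CKO, 1154 ± 9.18 in Mettl3 control and 1104 ± 13.8 in Mettl3 CKO (SD, n = 2). Of them 9 were lower and 1 higher in Mettl14 CKO, and 4 lower and 2 higher in Mettl3 CKO. Single log2 changes ran from -1.95 to 0.12 in Mettl14 CKO and from -0.36 to 0.39 in Mettl3 CKO. Between the controls, 10 were higher and 1 lower in Mettl14 control, with log2 differences from -0.63 to 2.81. The 15 fibroblast markers, of which Lum had 0 counts in at least 1 library, summed to 737 ± 0.642, 1478 ± 0.242, 5961 ± 127 and 7082 ± 40.4 CPM in the same order. Of the 14 tested, 11 were higher and 0 lower in Mettl14 CKO, 6 higher and 2 lower in Mettl3 CKO, and 13 lower and 1 higher in Mettl14 control than in Mettl3 control, the shares over all genes being those given above for each comparison.

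The 10 primitive endoderm markers summed to 1036 ± 3.12, 1669 ± 23.1, 2412 ± 25.4 and 2661 ± 13.1 CPM, with 3 of 9 tested higher and 0 lower in each knockout; these were the matrix genes Col4a1 and Sparc with Lamb1 in Mettl14 CKO and Dab2 in Mettl3 CKO, while Foxa2 was too low to be tested. Transcripts of the mitochondrial genome, which are made outside the nucleus, summed to 10269.6 ± 76.8, 6641 ± 14.8, 5346 ± 207 and 7163 ± 365 CPM. These sums were 0.647 times control in Mettl14 CKO and 1.34 times control in Mettl3 CKO. How much RNA from outside the nucleus each preparation held was not tested. Within each line the fibroblast and primitive endoderm sums were higher in CKO than in control, and the embryonic stem cell sum was lower. Between the controls, the fibroblast and primitive endoderm sums were lower in Mettl14 control, and the embryonic stem cell sum was higher. The part of these markers in the results was not tested, and in such bulk samples a change in the number of cells of a type and a change in RNA per cell cannot be told apart.

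Other genes of the pathway were taken from lists kept apart from the 33. Like the 33, these lists were chosen with earlier results of these data known. The counts of each list below stand against 18% of all genes tested called higher and 22.4% lower in Mettl14 CKO, and 15.1% and 5.78% in Mettl3 CKO, and the medians against 0.034 and 0.026. In other sterol synthesis genes, 5 of 8 were higher and 2 lower in Mettl14 CKO, and 7 higher and 0 lower in Mettl3 CKO. Of 8 genes listed for sterol uptake and intracellular transport, 7 were higher and 0 lower in Mettl14 CKO, and all 8 higher in Mettl3 CKO. These counts include Lpin1, a gene of glycerolipid synthesis, which rose by 0.56 and 0.29 in Mettl14 and Mettl3 CKO. The lysosomal cholesterol carrier Npc2 rose by 1.05 and 0.36, and the receptor gene Lrp8 by 0.85 and 0.995.

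Of 15 genes of the machinery that moves, cuts and degrades SREBP, SCAP and INSIG, 4 were higher and 6 lower in Mettl14 CKO, with a median of -0.036. In Mettl3 CKO 8 were higher and 0 lower, with a median of 0.15 and a largest change of 0.32. Erlin2, of the endoplasmic reticulum membrane, rose by 0.43 and 0.15 in Mettl14 and Mettl3 CKO. Sec24b, a coat protein of vesicles leaving the endoplasmic reticulum, changed by -0.43 and 0.24.

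Of 20 further fatty acid genes tested among 21, 10 were higher and 3 lower in Mettl14 CKO, and 10 higher and 2 lower in Mettl3 CKO. Both knockouts had less of Acacb, the carboxylase isoform of the mitochondrial surface (-1.26 ± 0.065 and -0.64 ± 0.068), and of the fatty acid carrier gene Fabp5 (-1.18 ± 0.080 and -0.74 ± 0.081). Acaca, the cytosolic counterpart of Acacb, had risen in both. In 12 genes of non-sterol isoprenoids, which also draw on mevalonate, 4 were higher and 3 lower in Mettl14 CKO, and 2 higher and 1 lower in Mettl3 CKO, with medians of 0.0043 and 0.073, near those of all genes. Rce1 and Icmt, which finish prenylated proteins, rose by 0.90 and 0.56 in Mettl14 CKO. Nus1, of dolichol synthesis, changed by -0.28 and 0.22, and Pdss1, of ubiquinone synthesis, by -0.24 and -0.20.

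Of 7 genes of sterol efflux and its LXR regulators, 3 were higher and 1 lower in Mettl14 CKO, and 0 higher and 2 lower in Mettl3 CKO. The exporter gene Abca1 changed by 0.25 and -1.30, Abcg1 by -0.18 (not called) and -1.08, and the lysophospholipid acyltransferase Lpcat3 by 0.43 and 0.097 (not called) in Mettl14 and Mettl3 CKO. Where a list above had 0 genes called in a direction by edgeR, the count at an unadjusted p under 0.05 was also 0, except for 1 fibroblast marker lower in Mettl14 CKO and 1 efflux gene higher in Mettl3 CKO; DESeq2 was not counted for these lists.

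**Figure D4:**
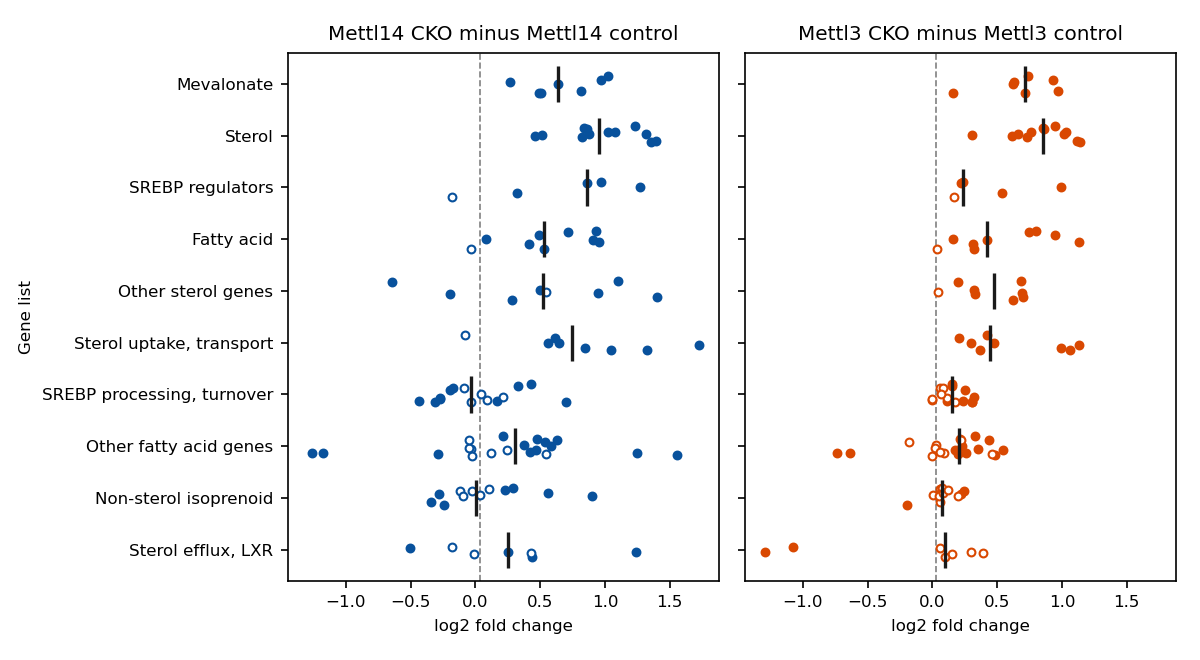
Log2 change (x axis) of single genes, 1 point each, in the 4 branches and 6 further lists (y axis) for Mettl14 CKO (left) and Mettl3 CKO (right). Filled points were called, bars mark list medians and the dashed line the median of all genes tested; the 4 branches, other sterol genes and sterol uptake lie mostly to the right of it, and the isoprenoid medians are close to it.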

How the data were processed

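Nuclear RNA was sequenced in 8 samples, 4 groups of 2, named and numbered from the sample titles; the labels name no batch. Per the labels' protocols, ribosomal RNA was removed from nuclear RNA with RiboMinus, and the SMARTer Stranded Total RNA-Seq kit was used for the libraries. The deposited values are raw read counts for 54446 genes, each sample in its own table. The submitters' processing notes name CASAVA, Trimmomatic 0.38, HISAT2 2.1.0, HTSeq and the mm10 genome. They give no annotation release, strand setting or handling of shared reads, so reads of overlapping genes and near-identical copies may be shared or lost. Symbols, coordinates and exon lengths came from GENCODE M21, which matched 54409 genes and left 37 without a symbol; 0 rows named no gene.

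Total counts of 17235889 to 20086128 limit the precision of low genes. Chi-square tests between libraries of a group gave 1.43 to 2.08 per degree of freedom, more than sampling noise, and no library was taken for a copy. Genes passed filterByExpr (minimum count 10), which left 21782, and were fitted with edgeR 4.0.16 in R 4.3.3 (TMM scaling, robust glmQLFit, glmQLFTest) in 1 model of 4 group means with 4 residual degrees of freedom and a common dispersion of 0.000571. P-values were Benjamini-Hochberg adjusted over all genes tested. The fit was tested on simulated data.

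The alternatives were RLE and upper-quartile scaling, no low-count filter, DESeq2 1.42.0, limma-voom (limma 3.58.1), a replicate block, each line fitted alone and leaving out each library. The 33 genes and the further lists were chosen with earlier results of these data known. Values per library are given for the genes with the highest and lowest change of each branch in each knockout, all regulators, genes not called, and the 2 genes with the smallest p for the difference between knockouts; of the further lists, the 2 genes with the smallest p in each knockout are named, except some that are not reported here. Scd1 group means and genes named for overlaps, markers or calls lost were chosen after their values were seen. Promoters came from a RefSeq table of GRCm38.p6. No explanation of a result was tested.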

Additional observations from a re-analysis of the deposited data

Results flagged for a closer look

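The change in Mettl14 CKO and the change in Mettl3 CKO differed by edgeR's test of the difference itself in 13 of the 33 genes (33.2% of all genes tested). On the log2 scale, Mettl14 change minus Mettl3 change, Srebf1 differed by 0.73 (adjusted p = 4.07e-18), Scap by 0.64 (adjusted p = 6.06e-12) and Fasn by 0.48 (adjusted p = 4.29e-26). Hmgcs1 differed by 0.35 (adjusted p = 9.86e-09), Dhcr7 by 0.30 (adjusted p = 0.00729), Lss by 0.29 (adjusted p = 0.000167), Insig1 by 0.28 (adjusted p = 0.000576), Cyp51 by 0.28 (adjusted p = 5.62e-07), Fdft1 by 0.21 (adjusted p = 0.000466) and Acly by 0.21 (adjusted p = 6.51e-06). The 3 genes left had the larger rise in Mettl3 CKO: Scd1 (-0.45, adjusted p = 1.63e-15), Idi1 (-0.37, adjusted p = 0.0155) and Srebf2 (-0.21, adjusted p = 0.000649). Srebf1, Scap and Fasn were also lower in Mettl14 control than in Mettl3 control. Hmgcs1, Dhcr7, Lss, Insig1, Cyp51, Fdft1 and Acly also rose more in Mettl14 CKO but were higher in Mettl14 control. Their control differences ran from 0.25 (Lss) to 1.41 (Insig1) on the log2 scale. Of the 3 genes with the larger rise in Mettl3 CKO, Scd1 and Idi1 were higher in Mettl14 control and Srebf2 was not called. The control groups enter both comparisons, and their part in these differences was not tested.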

How the results depend on the processing

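Of the 31 genes called higher in each knockout, 28 held their call in all 15 alternatives run for Mettl14 CKO and 27 in all 15 for Mettl3 CKO, and 0 of the 33 were called lower in any of them. The calls lost were those of Idi1, Tm7sf2 and Elovl6 in Mettl14 CKO, and of Hmgcs1, Ebp, Scap and Elovl6 in Mettl3 CKO, the last 4 under upper-quartile scaling alone. The shift of each gene's log2 change from the main fit was also taken. Under upper-quartile scaling the median shift over genes was -0.113 in Mettl3 CKO, 0.157 in the difference between knockouts and -0.218 between controls. Without the low-count filter the median shifts were 0.107, -0.109 and 0.138 in the same order.

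The median of the 33 genes was 0.784 with DESeq2 in Mettl14 CKO; in Mettl3 CKO it was 0.841 without the filter, 0.621 under upper-quartile scaling and 0.734 to 0.784 when 1 library was left out. DESeq2 called 2897 of all genes in Mettl3 CKO, against 4552 with edgeR. For the difference between knockouts the median, 0.09, was 0.020 with DESeq2, -0.019 without the filter and 0.247 under upper-quartile scaling. The 10 genes higher became 6 and 19 under the last pair of settings, and the 3 lower became 5 with DESeq2, 9 without the filter, 1 under upper-quartile scaling and 3 to 6 when 1 library was left out. Between controls the median of 0.52 was 0.608 with DESeq2, 0.662 without the filter, 0.305 under upper-quartile scaling and 0.524 to 0.595 with 1 library left out. Signs turned in values near 0. Elovl5 turned to 0.0076 with its line fitted alone and 0.013 under upper-quartile scaling in Mettl14 CKO, and to -0.0052 and -0.081 in Mettl3 CKO. In the difference between knockouts, without the filter Acaca was -0.0048, Acat2 -0.098, Msmo1 -0.062, Mvd -0.074, Sqle -0.019 and Stard4 -0.108; with DESeq2 Acat2 was -0.059, Msmo1 -0.023, Mvd -0.033 and Stard4 -0.068; Stard4 was -0.0097 with RLE scaling and -0.0019 with limma-voom. Under upper-quartile scaling Elovl5 was 0.094, Elovl6 0.080, Fdps 0.0012, Sc5d 0.147, Scd2 0.126 (adjusted p = 0.00111) and Tm7sf2 0.00062. With 1 library left out, the difference ranged from -0.144 to 0.099 for Acat2, -0.0059 to 0.20 for Fads1, -0.025 to 0.064 for Msmo1, -0.223 to 0.214 for Mvd and -0.157 to 0.099 for Stard4. Srebf2 between controls was 0.0062 with DESeq2, 0.060 without the filter and -0.105 to 0.0071 with 1 library left out. The cause of these shifts was not tested.

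Same-numbered samples of different groups deviated together at r of -0.032 to 0.109 over 10099 genes. Since counting noise lowers such values, they do not settle whether same-numbered samples were handled together. With a replicate block 31 genes were again called higher in each knockout, with medians of 0.84 and 0.73. All genes called then went from 8801 to 8835 and from 4552 to 4620. The replicate block changed no other call of the 33. Genes with low counts were filtered out, and among the 33 Insig2, Tm7sf2 and Fdps were the least abundant; with Mvd, they had the 4 widest standard errors in both knockouts.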
